A study of Arabidopsis thaliana with 6 samples.

Results

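The genes described here build the mitotic spindle, the phragmoplast and the cell plate of dividing plant cells. They are KNOLLE (KN, AT1G08560), HINKEL (HIK, AT1G18370), PLEIADE (PLE, AT5G51600), EDE1 (AT2G44190), TPX2 (AT1G03780), the Aurora kinases AUR1 (AT4G32830), AUR2 (AT2G25880) and AUR3 (AT2G45490), KEULE (KEU, AT1G12360) and TIO (AT1G50230). They were chosen by locus, and all 10 of the 10 listed were on the array, each with 1 probe set, among 22746 probe sets tested. The samples were root pieces of wild-type Arabidopsis thaliana, accession Col-0, raised under constant light on upright plates solidified with phytagel. Seedlings aged 8 days were placed in RNAlater, which stabilises RNA, and their root tips were then cut. Zone I comprised the last 0.5 mm of the tip, where the cap and the dividing cells lie, and zone II comprised 1.5 mm in which cells elongate and root hairs form. There were 3 arrays of each zone, and no treatment or mutant was involved.

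Plant cells divide without centrosomes or a contractile ring. The spindle assembles from microtubules nucleated near chromatin and along existing microtubules, under TPX2 and the Aurora kinases. After anaphase the phragmoplast, a paired array of microtubules and actin, guides Golgi vesicles to the division plane, where they fuse into a cell plate that grows outward to the parental wall. In roots these divisions take place in the meristem at the tip, and cells stop dividing before they elongate.

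Nothing in the labels tells whether the 3 arrays of a zone stand for separate harvests. The p-values therefore reflect only how far these arrays spread, which may be technical. Median signals of the 6 arrays, which had been scaled alike, were 132 to 149. Cell type markers followed the zone labels. The summed signal of 5 Casparian strip genes was 33.2 to 96.3 in zone I and 27404 to 46445 in zone II, and that of 5 root hair genes was 107.8 to 456 in zone I and 37851 to 51961 in zone II. All 10 of these were higher in zone II. The stem cell niche factors PLT1 and PLT2 summed to 413 to 577 in zone I and 3.65 to 29.7 in zone II.

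Of the 10 genes, 8 were higher in zone I, KEU was higher in zone II, and AUR2 did not pass the test (limma, adjusted p under 0.05 over all probe sets). Across all probe sets 37.9% passed, 19.8% toward zone I and 18.1% toward zone II. All 8 genes called toward zone I differed at least 2-fold, as did 16.6% of all probe sets, and 7 differed at least 4-fold, as did 7.06% of all probe sets. The lowest zone I array lay above the highest zone II array for 7 genes, where 26.4% of all probe sets did so, and the reverse held for KEU, where 23.5% did. The median log2 difference, zone II minus zone I, was -3.06 over the 10 genes and -0.04 over all probe sets, or -1.55 and -0.01 after 64 was added to every signal. The addition of 64 damps differences set by dim signals, and 5 of the 10 genes had a zone II mean below 64. In pieces of tissue, fewer dividing cells and less RNA per cell cannot be told apart.

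**Figure D1:**
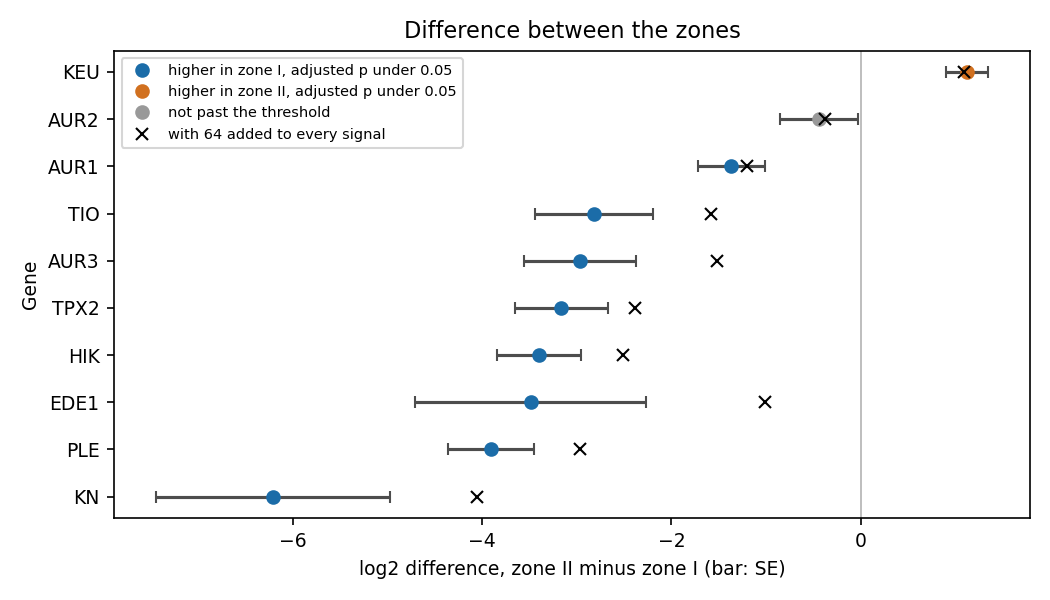
The log2 difference, zone II minus zone I, is plotted for each gene with its SE (n = 3 arrays per zone), and crosses give the difference with 64 added to every signal. KN lies farthest toward zone I at -6.21, KEU alone lies above 0 at 1.12, and the crosses of KN, EDE1, AUR3 and TIO sit much nearer 0 than their points.

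TPX2, the spindle assembly factor that binds and activates Aurora kinase, had signals of 639, 1021 and 562 on zone I arrays 1, 2 and 3 and of 177, 63.3 and 45.5 on zone II arrays 1, 2 and 3. Every zone I array exceeded every zone II array by more than 3-fold. The log2 difference was -3.16 ± 0.49 (SE, n = 3 per zone, limma adjusted p = 0.000433), or -2.38 with 64 added.

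The Aurora kinases each had a lower mean signal in zone II, but AUR2 did not pass the test. AUR1, an alpha Aurora found on spindle microtubules and at the forming cell plate, had signals of 469.9, 936 and 1072 in zone I and of 425, 291 and 221 in zone II. The zones did not overlap, but zone I array 1 and zone II array 1 were close. The difference was -1.37 ± 0.35 (SE, limma adjusted p = 0.0101). It missed the threshold without zone I array 2 (-1.24, adjusted p = 0.0527 in limma) or zone I array 3 (-1.14, adjusted p = 0.0530 in limma), and without the intensity trend of the variance model (adjusted p = 0.0640 in limma).

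AUR2, the other alpha Aurora, had signals of 451, 783 and 559 in zone I and of 878, 338 and 265 in zone II. The highest of the 6 values was that of zone II array 1, and the zones overlapped. The difference of -0.44 ± 0.41 (SE) had a limma adjusted p of 0.454. Without zone II array 1 it was -0.96 ± 0.30 (SE) and passed at an adjusted p of 0.0296 (limma), so this 1 array decided the call.

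AUR3, the beta Aurora that sits at centromeres and phosphorylates histone H3, was dimmer, with signals of 235, 151 and 199 in zone I and of 37.4, 20.8 and 19.0 in zone II. All 3 zone II values were far under the zone I range and lay in the range of dim probe sets. The difference was -2.97 ± 0.59 (SE, limma adjusted p = 0.00222), or -1.52 with 64 added, and it kept its call whichever array was left out.

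EDE1, a microtubule-associated protein of the QWRF family that works in mitotic arrays with the augmin complex, was dim on this array. Its signals were 68.7, 151 and 132 in zone I and 85.4, 4.06 and 2.82 in zone II. Zone II array 1 lay above zone I array 1, so the zones overlapped, while zone II arrays 2 and 3 were near the floor of the array. The difference of -3.48 ± 1.22 (SE) passed narrowly at a limma adjusted p of 0.0434, and it was -1.01 with 64 added. The call was lost in 5 of the 6 fits that left out an array (-2.58 to -3.83), under the replicate block (adjusted p = 0.0524 in limma) and without the intensity trend (adjusted p = 0.107 in limma). It held without zone II array 1, where the difference was -5.04 ± 0.94 (SE).

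PLE, also called MAP65-3, cross-links microtubules of opposite polarity in the phragmoplast midzone. Its signals were 568, 1645 and 859 in zone I and 99.96, 45.4 and 52.6 in zone II. The lowest zone I value was over 5 times the highest zone II value, although the zone I arrays themselves spread almost 3-fold. The difference was -3.90 ± 0.45 (SE, limma adjusted p = 6.09e-05), or -2.97 with 64 added.

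HIK, the kinesin that activates the MAP kinase cascade for phragmoplast expansion, had signals of 526, 956 and 642 in zone I and of 111, 65.8 and 37.6 in zone II. The zones were well apart on every array. The difference was -3.40 ± 0.44 (SE, limma adjusted p = 0.000132), or -2.51 with 64 added.

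TIO, a FUSED-type kinase at the phragmoplast midline that is also needed for its expansion and is named FU in the authors' deposited table, had signals of 188, 358 and 202 in zone I and of 53.6, 15.1 and 48.0 in zone II. No zone II array reached the zone I range. The difference was -2.82 ± 0.63 (SE, limma adjusted p = 0.00429), or -1.59 with 64 added. PLE, HIK and TIO kept their calls in each of the 6 fits that left out an array.

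The syntaxin KN and its regulator KEU went opposite ways. KN, the syntaxin made for cell plate fusion, had signals of 1531, 2804 and 2269 in zone I and of 338, 3.1 and 23.0 in zone II. All 3 zone II arrays lay below all 3 zone I arrays, with arrays 2 and 3 below 64 and array 1 above it. The difference was -6.21 ± 1.24 (SE, limma adjusted p = 0.00224), or -4.05 with 64 added. It was -7.98 ± 0.69 (SE) without zone II array 1 and -4.60 ± 0.88 (SE) without zone II array 2, so its direction and call held while its size depended on the dim zone II signals.

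KEU is a Sec1/Munc18 protein that binds KN and keeps it ready for membrane fusion, and it is also known to be needed for root hair growth. Its signals were 1851, 2105 and 1406 in zone I and 5080, 3140.2 and 3554 in zone II. All 3 zone II arrays exceeded all 3 zone I arrays. The difference was 1.12 ± 0.22 (SE, limma adjusted p = 0.00213), a 2.18-fold higher signal in zone II, and 64 added left it at 1.10. The call held in each of the 6 fits that left out an array (0.92 to 1.27) and under quantile normalization (1.14) and equal medians (1.05).

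**Figure D2:**
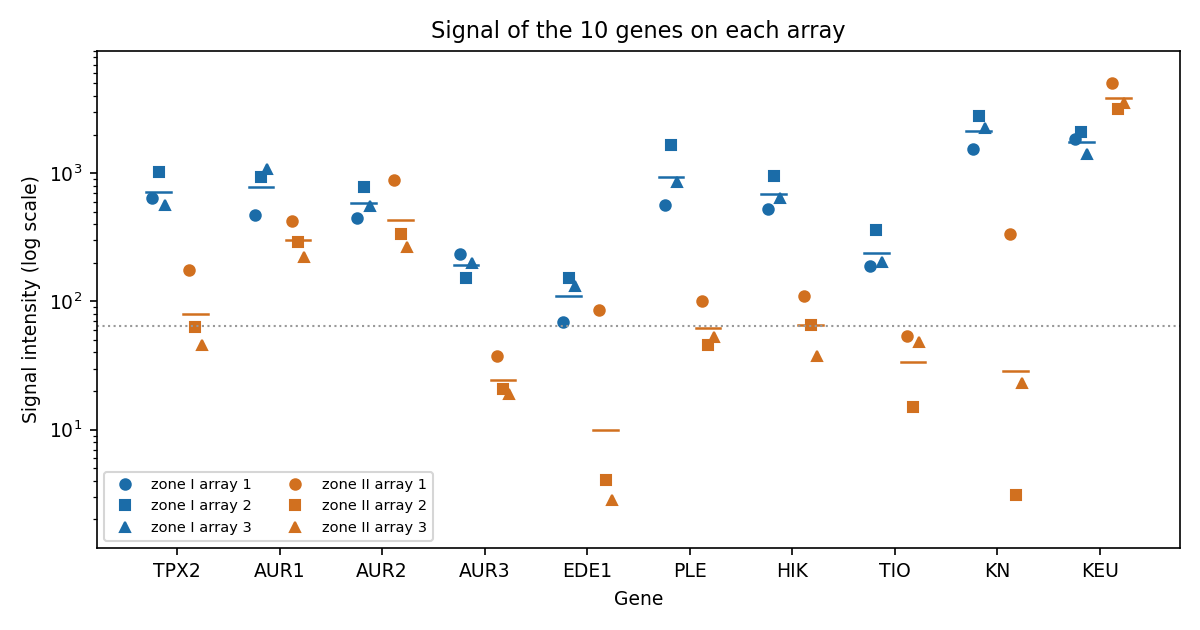
The signal of each gene on each of the 6 arrays is plotted on a log axis, with zone I in blue, zone II in orange, a marker shape per array number and a bar at each zone's geometric mean; the dotted line marks 64. For EDE1 and AUR2 the zones overlap, KEU is the gene whose zone II points lie above zone I, and the round orange point of zone II array 1 is the highest of its zone for every gene.

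Differences of change between genes were examined in the ratio of signals within each array, which a constant scaling of an array cannot alter. There were 7 pairs, and with 3 arrays against 3 an exact permutation test cannot go below p = 0.1, so none could pass. The log2 ratio of KN to KEU was -0.27, 0.41 and 0.69 on the zone I arrays and -3.91, -9.99 and -7.27 on the zone II arrays. It moved by -7.33 between the zones (two-sided exact permutation p = 0.1, 0.117 after Benjamini-Hochberg adjustment over the 7 pairs), or by -5.15 with 64 added.

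The ratio of AUR1 to AUR2 moved by -0.93, from 0.06, 0.26 and 0.94 in zone I to -1.05, -0.22 and -0.26 in zone II, with no overlap (exact permutation p = 0.1). AUR1 changed less than TPX2, by 1.79, or by 1.18 with 64 added, again with no overlap between the zones' ratios (exact permutation p = 0.1). AUR1 also changed less than AUR3, by 1.6 (exact permutation p = 0.1), but with 64 added this was 0.32 (exact permutation p = 0.7). The difference of change between HIK and TIO was -0.58, with overlapping ratios (exact permutation p = 0.7). With 64 added it was -0.92 and the ratios no longer overlapped (exact permutation p = 0.1).

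Zone II array 1 stood apart for these genes. It was the highest zone II array for all 10, where 36.4% of all probe sets had their highest zone II signal there. Its log2 excess over the mean of zone II arrays 2 and 3 ran from 0.60 for KEU to 5.32 for KN, with a median of 1.09, against a median of 0.04 over all probe sets. EDE1 followed KN at 4.66 and TPX2 lay at 1.73. On zone II arrays 2 and 3 KN had signals of 3.1 and 23.0 and EDE1 of 4.06 and 2.82, so the size of both excesses depends on dim signals. The excess was over 1 for 6 of the 10 genes and for 15.6% of all probe sets.

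Markers of other cells were divided on zone II array 1. The summed signal of 3 dividing-cell markers was 549 on zone II array 1, 142 on array 2 and 116 on array 3, against 1196 to 1809 in zone I. CDKB2;1 made up most of the first sum, at 396, and CDKB2;2 was also highest on array 1, but CYCB1;1 was not, at 48.3, 60.1 and 26.6, all below 64. The 4 root cap factors summed to 195, 103 and 45.0 on the 3 zone II arrays, against 337 to 1151 in zone I. SMB and BRN2 were highest on zone II array 1, at 109.8 and 80.6, while BRN1 and FEZ lay at 3.24 and 1.30 there and below 64 on all 3. PLT1 and PLT2 were below 64 on every zone II array, so no order of the arrays is read from them. The root hair sum was also highest on zone II array 1, at 51961 against 41310 and 37851. So was the Casparian strip sum, at 46445 against 39296 and 27404. The xylem sum was highest on array 2, at 10359, 12039 and 8269 on the 3 arrays. The sieve element sum was too, at 1058, 1145 and 636. The part of these cells in the results was not tested. Without zone II array 1, 9 of the 10 genes passed toward zone I, as did 4391 of the 22746 probe sets. KEU still passed toward zone II in that fit, as did 3727 of the 22746 probe sets.

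In zone I, array 1 was the lowest of its zone for 7 of the 10 genes, where 39.2% of all probe sets had their lowest zone I signal there. Zone I array 2 was the highest for 8 of the 10, against 36.3% of all probe sets. AUR3 ran the other way, highest on zone I array 1 and lowest on array 2. The root cap sum was also lowest on zone I array 1, at 337 against 1130.2 and 1151, as was that of PLT1 and PLT2, at 413 against 521 and 577. The dividing-cell markers summed to 1222, 1809 and 1196 on zone I arrays 1, 2 and 3, so array 1 was not their lowest. The root hair sum was highest on zone I array 1, at 456 against 200 and 108. The xylem sum was too, at 1123 against 500 and 189. The Casparian strip sum was highest on zone I array 2 instead, at 50.7, 96.3 and 33.2 on the 3 arrays. So was the sieve element sum, at 50.3, 71.5 and 11.5. Each gene of these last sums lay below 64 on every zone I array. The part of any of these cells in the values of the 10 genes was not tested.

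**Figure D3:**
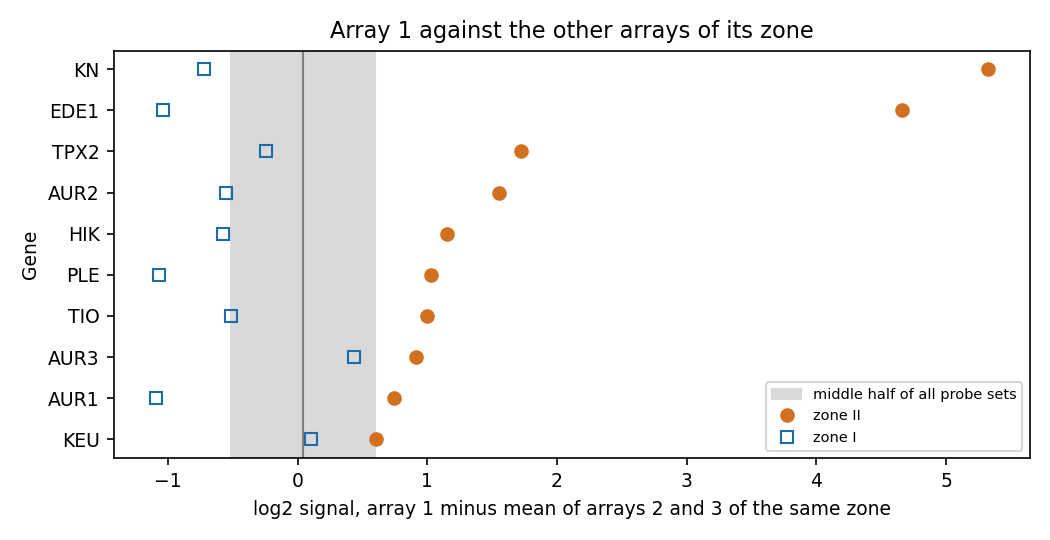
For each gene the log2 signal of array 1 minus the mean of arrays 2 and 3 of the same zone is plotted, for zone II as filled circles and for zone I as open squares; the grey band holds the middle of the zone II values of all probe sets, from the 25th to the 75th percentile, and the grey line their median. All 10 circles lie to the right of the median line of 0.04, KN and EDE1 farthest at 5.32 and 4.66, and 8 of the 10 squares lie left of 0.

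The authors' deposited table of their own comparison gave the same direction for all 10 genes, with its sign read as zone II over zone I from a correlation of 0.87 with the differences above. An adjusted p under 0.05 was listed for 9 genes in the authors' deposited table, and AUR2 was the exception (-0.52, adjusted p = 0.349). KN lay at -5.09 and KEU at 0.93 in the authors' deposited table (adjusted p = 0.00311 and 0.00187). EDE1 lay at -1.58 in the authors' deposited table, with an adjusted p of 0.00224, a smaller difference and a smaller p than those given above. Both sets of values come from the same arrays.

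Other genes of division were taken as 13 lists by role, which hold 102 genes besides the 10, of which 90 were measured. Of these 90, 43 passed toward zone I and 9 toward zone II, beside 19.8% and 18.1% of all probe sets, and their median log2 difference was -0.93. The lists overlap, and the counts below include the members where they belong.

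Among the MAP65 proteins, which bundle microtubules, 4 of 9 passed toward zone I and 1 toward zone II. MAP65-2 had a signal of 2935, 2863 and 3708 in zone I and of 69.6, 96.4 and 179.8 in zone II (-4.89 ± 0.33, SE, limma adjusted p = 3.49e-06), a larger difference than that of PLE. MAP65-1, which bundles interphase and phragmoplast microtubules, lay at -1.53 ± 0.25 (SE). PLE moved by -2.38 relative to MAP65-1, or by -1.6 with 64 added, with no overlap (exact permutation p = 0.1). MAP65-6 was the member higher in zone II, with 142 to 164 in zone I and 1142 to 1730.0 in zone II (3.17 ± 0.25, SE). The count toward zone II was 2 without zone I array 1, with 16 or 64 added, and without the intensity trend.

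The next list holds HIK, the kinesin TES and the kinases of the cascade that HIK activates. Of its 7 genes 5 passed toward zone I, HIK and TES among them, and 1 toward zone II. The MAP3K ANP3 lay at -3.52 ± 0.41 (SE), the kinesin TES, a close relative of HIK, at -3.11 ± 0.70 (SE), and the MAP2K MKK6 at -2.07 ± 0.49 (SE). TES ran from -3.86 without zone II array 1 to -2.21 without zone II array 2. The MAP3K ANP1 was higher in zone II at 1.63 ± 0.48 (SE), a call lost without zone I array 1 (1.37) or zone II array 1 (1.44). MPK4, the MAP kinase at the end of the cascade, did not pass, with 712 to 959 in zone I and 814 to 885 in zone II.

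Of 8 phragmoplast and spindle kinesins 7 were higher in zone I, with a list median of -2.71. The largest differences besides HIK were those of POK2, which guides the phragmoplast to the division site (-5.03 ± 1.17, SE, or -2.32 with 64 added), PAKRP2 (-4.31 ± 1.15, SE, or -2.26 with 64 added) and PAKRP1L (-3.11 ± 0.39, SE, or -2.31 with 64 added). PAKRP2 lost its call without zone I array 2 (-4.01). With 1 zone II array left out, POK2 ran from -6.67 without array 1 to -4.16 without array 3, and PAKRP2 from -5.25 without array 1 to -2.68 without array 3. RSW7, a kinesin of the mitotic spindle, was the 1 that did not pass (-0.80, limma adjusted p = 0.207).

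In the membrane fusion list 4 of 16 genes were called toward each zone, a share near the 19.8% and 18.1% of all probe sets, and the median was 0.14. SNAP33, a SNARE partner of KN, had signals of 514, 764 and 439.8 in zone I and of 2802, 1819 and 2163 in zone II (2.00 ± 0.25, SE, limma adjusted p = 0.000101). Like KEU, it was higher on every zone II array than on any zone I array. The dynamins DRP2A and DRP1A, which shape membranes at the cell plate and in endocytosis, were higher in zone I at -1.29 ± 0.22 and -0.90 ± 0.19 (SE).

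Among the 9 syntaxins of the SYP1 family, KN was the only one called toward zone I, while 3 passed toward zone II. SYP122, a plasma membrane syntaxin, lay at 4.90 ± 0.29 (SE), from 61.3 to 66.4 in zone I to 1457 to 2615 in zone II. SYP123, the syntaxin of root hairs, lay at 3.77 ± 0.45 (SE, or 2.56 with 64 added). SYP132, which acts in general secretion and in cytokinesis, had signals of 3085 to 4231 in zone I and 4183 to 6529 in zone II. Its difference was 0.62 ± 0.20 (SE, limma adjusted p = 0.0332), and it lost its call in 4 of the 6 fits without an array, those without array 2 or 3 of either zone (0.49 to 0.60). The ratio of KN to SYP132 moved by -6.83 between the zones, or by -4.66 with 64 added (exact permutation p = 0.1). Of the Sec1 family 2 of 3 genes were measured, and SEC1B did not pass (1.85, limma adjusted p = 0.140), although without zone I array 1 both were higher in zone II.

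Of the augmin subunits and EDE1, 4 of 8 measured genes were higher in zone I, and 2 were when any 1 of the zone I arrays was left out. AUG5 lay at -1.37 ± 0.28, AUG7 at -1.33 ± 0.35 and AUG4 at -0.94 ± 0.31 (SE), and AUG4 lost its call in 5 of the 6 fits without an array (-0.73 to -0.99), all but that without zone II array 2. AUG8, a QWRF relative of EDE1, had no probe set under its locus. In the gamma-tubulin complex, which nucleates microtubules, 4 of 7 were higher in zone I, or 2 without zone I array 2 or zone II array 2. GIP1 lay at -2.36 ± 0.23 (SE), GCP4 at -1.35 ± 0.40 and GIP2 at -0.98 ± 0.29. GCP4 lost its call without array 1 or 2 of zone I or array 2 of zone II (-1.13 to -1.42). GIP2 lost its call without array 2 or 3 of zone I or array 2 of zone II (-0.79 to -1.02).

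Aurora partners and spindle microtubule proteins passed toward zone I in 4 of 8 measured genes. EB1C, a plus-end protein of dividing cells, lay at -3.20 ± 0.40 (SE, or -2.37 with 64 added), and the borealin BORR at -1.94 ± 0.46 (SE). CLASP lay at -0.72 ± 0.22 (SE) and lost its call without any 1 of the zone I arrays or without zone II array 1 (-0.56 to -0.75). EB1B, a relative of EB1C, did not pass, with 1042 to 1415 in zone I and 1240 to 1430 in zone II.

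The spindle checkpoint genes, which delay anaphase, passed toward zone I in 5 of 6 measured cases, or in 3 without zone I array 2 or 3. MAD2 lay at -5.09 ± 1.11, BUBR1 at -3.75 ± 0.97 and BUB3.2 at -3.40 ± 1.19 (SE), or at -2.55, -1.94 and -1.38 with 64 added. BUBR1 lost its call without zone I array 2 (-3.39), and BUB3.2 without any 1 of the zone I arrays (-3.20 to -3.77). With 1 zone II array left out the calls held, but MAD2 ran from -6.72 without array 1 to -4.15 without array 3, BUBR1 from -4.52 without array 1 to -2.46 without array 2, and BUB3.2 from -4.30 without array 1 to -1.76 without array 3. Of the division plane genes, TON1A was higher in zone I (-1.54 ± 0.24, SE) and PHGAP1 in zone II (0.67 ± 0.24, SE), among 5 measured. PHGAP1 lost its call in 4 of the 6 fits without an array (0.47 to 0.74), those without array 1 or 2 of zone I or array 2 or 3 of zone II.

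Among the transcription factors of this gene group, SCL28, a GRAS factor of mitotic genes, had signals of 1191, 2280 and 2506 in zone I and of 98.2, 47.5 and 32.9 in zone II (-5.14 ± 0.43, SE, limma adjusted p = 8.86e-06). MYB3R4, an activator of mitotic genes, lay at -3.03 ± 0.90 (SE, or -1.33 with 64 added) and lost its call without any 1 of the zone I arrays or without zone II array 2 (-2.90 to -3.21), and it was -4.07 without zone II array 1 and -2.13 without zone II array 3. MYB3R1 and MYB3R3 did not pass. Of 9 measured mitotic cyclins and B-type cyclin-dependent kinases 8 were higher in zone I, or 5 without zone I array 2. CYCB2;4 lay at -5.29 ± 1.33, CDKB2;2 at -4.95 ± 1.15 and CYCB1;4 at -4.31 ± 1.13 (SE), or at -1.96, -2.14 and -2.01 with 64 added. CYCB1;4 lost its call without zone I array 2 (-4.06). With 1 zone II array left out, CYCB2;4 ran from -7.03 without array 1 to -3.90 without array 3, CDKB2;2 from -6.58 without array 1 to -4.05 without array 2, and CYCB1;4 from -5.51 without array 1 to -2.80 without array 2. Without the intensity trend 2 checkpoint genes, 4 cyclins and kinases, 2 genes of the augmin list and 1 transcription factor were higher in zone I, and 2 membrane fusion genes were higher in zone II.

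**Figure D4:**
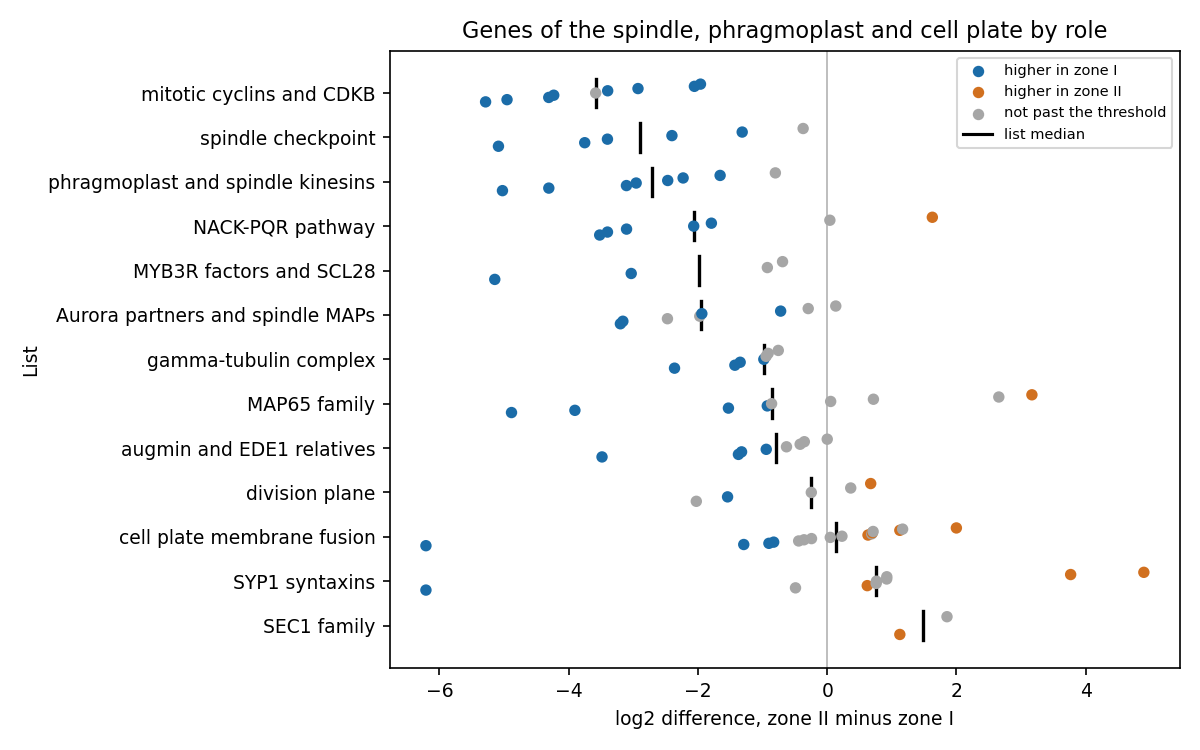
Each point is a gene at its log2 difference, zone II minus zone I, in 13 lists by role, coloured by its call, with a black bar at the list median. Medians run from -3.58 for mitotic cyclins and CDKB to 1.49 for the 2 measured Sec1 genes, and KN is the point at -6.21 in both lists that hold it.

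The genes with the pattern most like the mean profile of the 10 were found by the root mean square distance, over the 6 arrays, between log2 signals centred on their own mean. Among 12556 probe sets that name 1 gene and lie above the median signal in the brighter zone, the median distance was 1.49. The nearest was MOS6, an importin alpha, at 0.166, with signals of 1325, 2074 and 1679 in zone I and of 709.6, 194 and 245 in zone II. The spindle kinesin ATK5 followed at 0.245, and then AT5G66230, annotated as an unknown protein, at 0.263. The hydrolase gene AT5G45920, the DNAJ gene AT3G12170, the phosphoenolpyruvate carboxykinase gene PCK1, the zinc finger gene AT4G02220 and the pentatricopeptide repeat gene AT1G09900 lay at 0.294 to 0.312. The profile itself is higher in zone I and, within zone II, highest on array 1, so the choice by likeness fixed both traits in these 8 genes. AT5G66230 and AT3G12170 lost their calls without zone I array 2 (-2.04 and -2.84), and AT1G09900 without array 1 or 2 of zone I or array 2 of zone II (-2.17 to -2.49). Without zone II array 1, AT5G66230 was at -3.14, AT3G12170 at -3.85, AT1G09900 at -3.24 and PCK1 at -3.02, against -2.39, -3.00, -2.46 and -2.37 with all arrays. Of the 10 genes themselves TPX2 lay nearest their mean profile, at 0.362, and KN and KEU lay farthest, at 2.25 and 1.95.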

How the data were processed

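The authors deposited signal intensity values for each probe set on a linear scale, credited to MAS5 and Affymetrix Expression Console per the submitters' processing notes. Tool versions and the build were not given in the sources used here. Per the labels' protocols, cDNA made with the Ovation Pico WTA kit from PicoPure-extracted RNA carried the biotin label. With 2% of probe sets trimmed from each end, the mean signal of an array lay between 500.0 and 500.1. The authors' deposited comparison table supplied the loci, and it lists log2 fold changes with p-values, raw and adjusted, without naming the test or direction.

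Here, 64 control probe sets were left out, log2 of the deposited signal was taken with no offset, and the zones were compared with limma (version 3.58.1, R 4.3.3; lmFit, eBayes with an intensity trend, two-sided, Benjamini-Hochberg over 22746 probe sets). A call is an adjusted p under 0.05. SE is that of the fit, and zone means are geometric. The fit was tested on simulated data with the same spread in both zones. Of the 10 genes, 8 spread more widely in zone II (median log2 SD 0.85, against 0.45 in zone I). The simulation therefore cannot speak for their SE and p-values. Pairs of genes were compared by the exact permutation test over arrays. Of the 10 loci, 9 are in the RefSeq gene table used here (assembly TAIR10.1), and TIO is named from the deposited annotation.

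The members and lists were chosen with earlier results of these data known. Named besides the members are, per list, the 3 called genes with the largest difference and the called gene furthest against the majority, the genes of the pairs, and the 8 genes of nearest pattern. MPK4, RSW7, SEC1B, EB1B, MYB3R1 and MYB3R3 were named after their values were seen. Probe sets of the s_at kind can match near-identical transcripts, and 3 list genes (VAMP722, TUBG1 and CDKB1;2) had one. Alternatives were quantile normalization, equal medians, 16 or 64 added, array weights, robust eBayes, no intensity trend, removal of probe sets under the 40th percentile, the replicate number as a block, each array left out and array 1 of each zone left out together. Promoter sequences were not analysed here. The number of arrays limits the precision. Deviations of same-numbered arrays of the zones correlated at 0.004, 0.04 and 0.04. Such low values cannot tell whether the numbers pair the arrays.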

Additional observations from a re-analysis of the deposited data

How the results depend on the processing

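The counts of members called were 6 to 9 toward zone I and 1 toward zone II under all 16 alternatives. The filter at the 40th percentile gave 6, because EDE1 and AUR3 were filtered out, and no intensity trend gave 6. Leaving out 1 array gave 6 to 9, and dropping array 1 of each zone together gave 9. KN, HIK, PLE, TPX2, TIO and KEU kept direction and call under all 16, and AUR3 under the 15 that kept its probe set. EDE1 lost its call under 7, AUR1 under 3, and AUR2 passed under 2, those without zone II array 1 (-0.96) and without array 1 of either zone (-1.14). The cause of these changes was not tested. Over all probe sets the counts ran from 3452 to 4811 toward zone I and from 3485 to 4348 toward zone II. With the replicate number as a block they were 4419 and 4026, the member counts 7 and 1, and the counts among other genes of the lists 44 and 11. The block ended the call of EDE1 and of no other member. Deviations of same-numbered arrays from their zone means correlated under 0.1, and whether the numbers pair the arrays is not known. The other list genes ranged from 29 to 47 toward zone I and from 6 to 11 toward zone II, with medians of -0.77 to -1.03. The pair of EDE1 with AUG8 was not run, since AUG8 had no probe set under its locus. Without detection calls, signals below about 64 limit how far the size of a difference can be read.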
